A study of Mus musculus with 4 samples.

Results

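The genes described here encode ligands, extracellular binding proteins, an inhibitory Smad and target genes of BMP and activin signalling. They were chosen by name: Bmp4, Bmp7, Inhba, Fst, Fstl1, Smad6, Id1, Id2, Id3 and Id4, with every array probe whose accession belongs to one of these symbols. All 10 genes had a probe, and together they had 14 of the 41174 probes on the array. After a filter on dim probes 13 of the 14 were kept, at least 1 for each gene, and each gene entered a comparison across 21464 genes. The filter asked for red signal well above background on both arrays of at least 1 group: 8 genes met it in both groups, Id1 with DAPT only and Id4 with vehicle only. A probe kept through 1 group alone was selected for being bright there, so its direction is not independent of the filter.

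Basal cells of the prostate, isolated by flow sorting from grown FVB mice, were cultured as prostate spheres, the balls that epithelial progenitors form in three-dimensional culture. The spheres were treated with DAPT at 5 µM (2 arrays) or with vehicle (DMSO, 2 arrays), with fresh medium every 24 h. DAPT inhibits γ-secretase, the protease that frees the intracellular part of Notch receptors, and the study asked how Notch signalling regulates basal cell proliferation and differentiation. Red signal came from sphere RNA and green signal from a universal mouse reference on every array, and a value below is a log2 ratio of sphere over reference unless stated otherwise.

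BMPs and activins are secreted dimers that bind pairs of serine/threonine kinase receptors, and the receptors phosphorylate Smad proteins that enter the nucleus. BMPs act mainly through Smad1, Smad5 and Smad9, which induce Id genes and Smad6, whereas activins act through Smad2 and Smad3. Id proteins have a helix-loop-helix but no DNA-binding region, and they tie up the E proteins that other helix-loop-helix factors need as partners. In the developing mouse prostate BMP4 and BMP7 restrain the budding and branching of the ducts.

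Of the 10 genes, 1 rose and 1 fell with DAPT. Fstl1, which encodes a secreted glycoprotein with a follistatin domain that is typical of mesenchymal cells, fell 5.88-fold. Fst, which encodes follistatin, the extracellular protein that binds and neutralises activins, rose 1.75-fold. The other 8 genes, all 4 Id genes and Smad6 among them, did not pass, and the 2 probes of Bmp7 gave different answers. Across all genes tested 6.8% passed at an adjusted p of 0.05 in limma, 2.88% upward and 3.92% downward. The arrays of a group did not overlap with those of the other group for 8 of the 10 genes, against 53.9% of all genes, so a lack of overlap alone says little here. The median change of the 10 genes was -0.19, beside -0.06 over all genes.

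**Figure D1:**
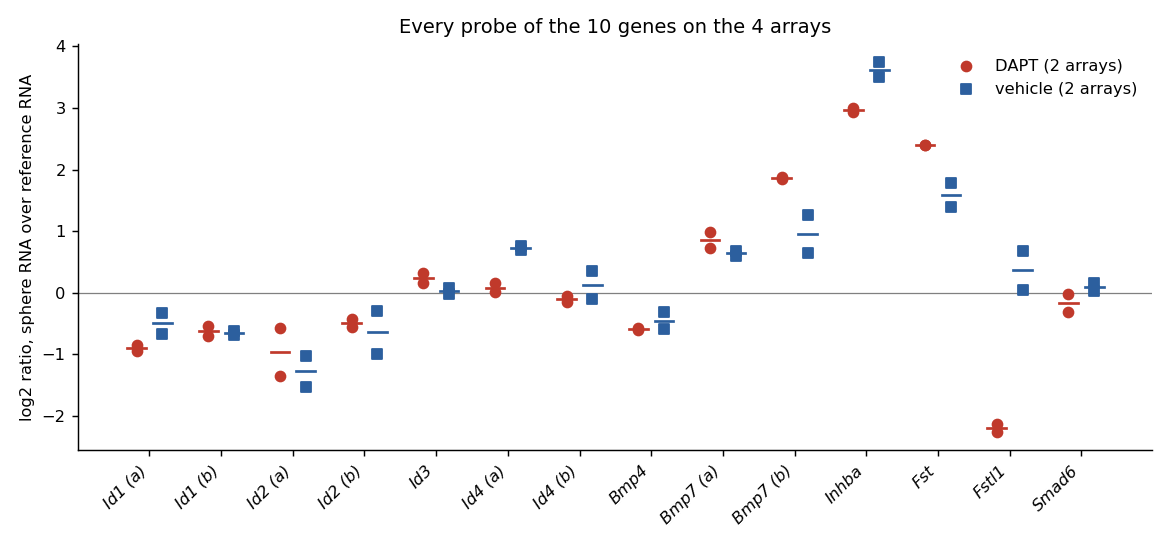
Log2 ratio of sphere RNA over reference RNA (vertical axis) for each of the 14 probes of the 10 genes, with DAPT arrays as circles, vehicle arrays as squares and a bar at the mean of 2 arrays. Where a gene has a pair of probes, (a) is the brighter one, which stands for the gene, and (b) the other. The DAPT and vehicle arrays of Fstl1 lie farthest apart, at -2.26 and -2.13 against 0.05 and 0.67.

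The 4 arrays lay on 1 slide and were read in 1 scan, per the file headers, with DAPT at positions 1 and 2 and vehicle at positions 3 and 4, so position and treatment cannot be told apart. Median red brightness was 2.42 to 2.85 times the local background on the DAPT arrays and 1.82 to 1.94 times on the vehicle arrays. The 5 prostate basal markers averaged log2 ratios of 3.89 and 3.75 on the DAPT arrays and 3.94 and 3.81 on the vehicle arrays. Of these Krt15 fell (-1.08, limma adjusted p = 0.00836), with raw red brightness of 12410.5 on DAPT 1 and 732 on DAPT 2. Krt5 (0.27), Krt14 (0.04), Itga6 (-0.28) and the brighter Trp63 probe (0.80) did not pass, while the other Trp63 probe rose by 1.21 (limma adjusted p = 0.0262 with every probe tested on its own). Of 4 luminal markers tested Krt19 fell (-1.11, limma adjusted p = 0.00569) and 0 rose. Whether 2 arrays of 1 group stem from different cultures or animals is not stated. The p-values and standard errors here thus reflect the spread of these samples alone, which limma pools in part over all genes. That spread may be technical. In whole spheres, fewer cells of a type and less RNA per cell cannot be told apart.

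The 250 bases before the transcription start are shown for Fstl1, the gene with the largest change, and for Id2 and Id4, the members whose window held a searched motif. RefSeq promoter windows of GRCm38.p6 were at hand for 7 of the 10 genes. Each line is read 5′ to 3′ on the gene's strand and ends at the base before the start. Capitals mark GGCGCC, a GC-rich Smad element of BMP-responsive genes, and TGGGAA, the core bound by RBPJ, the DNA-binding partner of Notch. Both strands were searched, and on the opposite strand the RBPJ core reads TTCCCA. The windows are chr16:37776805-37777054 on the plus strand for Fstl1, chr12:25096093-25096342 on the minus strand for Id2 and chr13:48260866-48261115 on the plus strand for Id4.
Fstl1: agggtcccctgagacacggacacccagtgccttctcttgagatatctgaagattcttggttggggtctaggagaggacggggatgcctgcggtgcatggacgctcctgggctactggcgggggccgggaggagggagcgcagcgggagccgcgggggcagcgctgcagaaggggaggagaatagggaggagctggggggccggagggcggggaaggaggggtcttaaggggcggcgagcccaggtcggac
Id2: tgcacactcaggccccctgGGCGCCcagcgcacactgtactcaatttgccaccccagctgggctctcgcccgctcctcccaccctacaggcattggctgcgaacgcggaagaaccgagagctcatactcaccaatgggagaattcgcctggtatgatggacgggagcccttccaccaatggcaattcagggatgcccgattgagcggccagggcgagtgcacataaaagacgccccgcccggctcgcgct
Id4: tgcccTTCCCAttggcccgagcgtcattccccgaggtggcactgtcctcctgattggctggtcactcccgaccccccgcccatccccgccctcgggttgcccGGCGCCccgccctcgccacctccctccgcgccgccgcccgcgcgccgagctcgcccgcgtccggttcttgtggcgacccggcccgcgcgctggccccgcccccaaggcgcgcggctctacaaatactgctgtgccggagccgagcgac
The Id2 window held 1 GGCGCC, beginning 231 bases before the start. The Id4 window held 1 GGCGCC at 148 bases and 1 TTCCCA at 245 bases before the start. Neither motif was found on either strand in the windows of Fstl1, Id3, Bmp4, Inhba or Smad6. Over all 32851 promoter windows of this length, 9.59% held GGCGCC and 21.6% held TGGGAA, and the motifs do not overlap each other in the sequences shown. The Id2 and Id4 windows were 62.8% and 75.6% G or C, against a median of 52.4% over all windows. These shares are thus not matched to their base content. A match describes these letters only, and neither Id2 nor Id4 passed in the comparison below.

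The BMP ligands were measured with unusual repetition, since the single Bmp4 probe and 1 Bmp7 probe were each printed as 10 spots per array. Bmp4 stood at -0.57 and -0.60 on the DAPT arrays and at -0.58 and -0.32 on the vehicle arrays. The groups overlapped, since the first vehicle array lay between the DAPT arrays. Its change was -0.13 ± 0.20 (SE, 2 arrays per group, 95% interval -0.56 to 0.30, limma adjusted p = 0.737). The 10 spots of an array had standard deviations of 0.10 to 0.16 for Bmp4, so the printing of the spots left each array's mean well fixed. The sign of the Bmp4 change turned with the scanner software's processed intensities (0.23), with median centring (0.21) and in the red channel alone (0.04).

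Bmp7, the other BMP ligand, had ratios above 0 on all 4 arrays with both of its probes. The probe with 10 spots read 1.88 and 1.84 on the DAPT arrays, against 1.26 and 0.65 on the vehicle arrays. Both DAPT arrays lay above both vehicle arrays, and the vehicle arrays differed from each other by more than the DAPT arrays did. With every probe tested on its own, where 6.9% of 27284 probes passed, this probe rose by 0.91 ± 0.23 (SE, 1.87-fold, limma adjusted p = 0.0355). Its spots ranged from 1.55 to 2.21 and from 1.504 to 2.22 on the DAPT arrays, and from 0.95 to 1.64 and from 0.13 to 1.10 on the vehicle arrays. On the second vehicle array not 1 spot reached the lowest spot of either DAPT array, while on the first vehicle array the highest spot did.

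The brighter Bmp7 probe, a single spot that stands for the gene in the comparison across genes, read 0.73 and 0.98 on the DAPT arrays and 0.68 and 0.60 on the vehicle arrays. The groups did not overlap, but they lay close together. Its change was 0.22 ± 0.20 (SE, 95% interval -0.22 to 0.65, limma adjusted p = 0.558). In the red channel, normalised across arrays, the probe with 10 spots was 0.73 higher with DAPT and the single-spot probe differed by -0.01. The difference between the probes was not tested. The scanner software marked the single-spot probe on every array, so that probe could not be tested without marked spots. Of the spots of the 10-spot probe, 50% and 40% were marked on the DAPT arrays and 10% and 50% on the vehicle arrays. Without marked spots the 10-spot probe rose by 0.92 (limma adjusted p = 0.0472). The 10-spot probe passed under 8 of 16 alternatives, with changes from 0.40 to 1.21. Its call was lost without DAPT replicate 1 (adjusted p = 0.0619), DAPT replicate 2 (0.0597) or vehicle replicate 2 (change of 0.60, adjusted p = 0.151), with processed intensities (0.181), offset 10 (0.0891) or scale normalization (0.62, adjusted p = 0.152), in the red channel alone (0.407), and with high-background spots kept (0.40, adjusted p = 0.801).

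**Figure D2:**
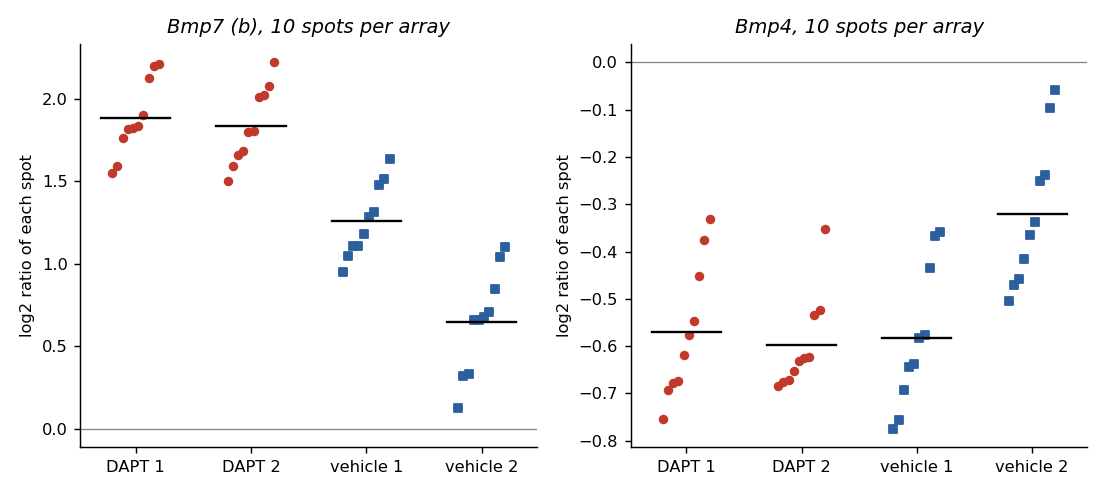
Log2 ratio of each of the 10 spots per array (vertical axis) for the repeated probes of Bmp7 and Bmp4, by array, with a bar at the array mean. The Bmp7 spots average 1.88 and 1.84 on the DAPT arrays against 1.26 and 0.65 on the vehicle arrays, while those of Bmp4 average -0.57 and -0.60 against -0.58 and -0.32.

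Inhba encodes the βA subunit that forms activin A. It had log2 ratios of 2.94 and 3.01 on the DAPT arrays and 3.74 and 3.497 on the vehicle arrays. Both DAPT arrays lay below both vehicle arrays. The change was -0.65 ± 0.20 (SE, 95% interval -1.08 to -0.22), which did not pass after adjustment over all genes (limma adjusted p = 0.0711, unadjusted p = 0.0065). The normalised log2 red signal was 10.29 and 10.10 with DAPT, against 11.27 and 10.18 with vehicle. There the second vehicle array lay between the DAPT arrays, so the red signal alone did not separate the groups. Inhba passed under 1 of 15 alternatives, with changes from -1.36 to -0.49. That was scale normalization between arrays, where it passed downward (-1.36, adjusted p = 0.00225). Its spot was marked by the scanner software on the second vehicle array, so it could not be tested without marked spots.

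Fst had log2 ratios of 2.40 and 2.39 on the DAPT arrays and 1.79 and 1.39 on the vehicle arrays. The DAPT arrays were nearly equal, and both lay above the vehicle arrays. The rise was 0.81 ± 0.21 (SE, 1.75-fold, 95% interval 0.36 to 1.26, limma adjusted p = 0.0372). The normalised log2 red signal averaged 9.44 with DAPT and 8.51 with vehicle, a difference of 0.94, and the green signal averaged 7.05 and 6.92, a difference of 0.13. The second vehicle array was the lowest of the 4 in both channels. Fst passed under 6 of 15 alternatives, with changes from 0.06 to 1.00 that were all above 0. It did not pass with processed intensities (0.14, adjusted p = 0.844), offset 10 (0.158), median centring (0.0614) or scale normalization (0.39, adjusted p = 0.313). Nor did it in the red channel alone (0.401) or with high-background spots kept (0.06, adjusted p = 0.983). Its spot was marked by the scanner software on DAPT 1, so it could not be tested without marked spots. The call was lost on leaving out DAPT replicate 1 (adjusted p = 0.0727), without DAPT replicate 2 (0.0847) and without vehicle replicate 2 (0.61, adjusted p = 0.154).

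Fstl1 had log2 ratios of -2.26 and -2.13 on the DAPT arrays and 0.05 and 0.67 on the vehicle arrays. Spheres with vehicle thus held about as much or more Fstl1 signal than the reference, and spheres with DAPT clearly less. The fall was -2.56 ± 0.23 (SE, 95% interval -3.06 to -2.06, limma adjusted p = 9.93e-05). Raw median brightness of the red spot was 541 and 341.5 on the DAPT arrays against 1500 and 1425 on the vehicle arrays, although the DAPT arrays were brighter as a whole. After normalization the log2 red signal was 9.22 and 8.98 with DAPT and 11.65 and 11.77 with vehicle. The green signal was 11.48 and 11.11 with DAPT and 11.60 and 11.10 with vehicle, so the reference hardly moved. Fstl1 passed under 14 of 15 alternatives, with changes from -2.87 to -2.14. In the red channel alone it stood at -2.61 and did not pass (adjusted p = 0.104), in a fit where 1 gene of all did. Its spot was marked by the scanner software on both DAPT arrays and on the second vehicle array, so it could not be tested without marked spots.

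**Figure D3:**
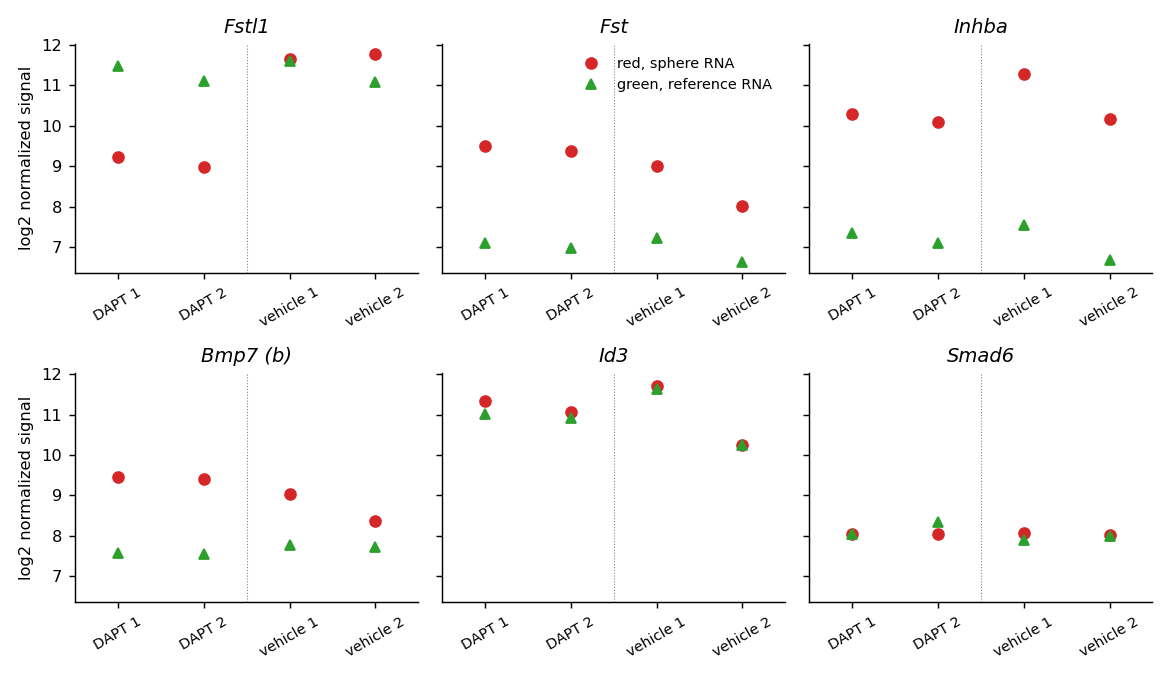
Log2 red signal (sphere RNA, circles) and log2 green signal (reference RNA, triangles) after loess and Aquantile normalization (vertical axis) on each array for 6 probes. The red signal of Fstl1 is 9.22 and 8.98 with DAPT against 11.65 and 11.77 with vehicle while its green signal hardly moves, and for Id3 both channels move together between arrays.

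Markers of fibroblasts, cells outside the sorted population, moved with Fstl1. Of 12 such markers, each by its brightest probe, 9 fell and 0 rose, with a median change of -1.52, and all 12 were well above background in red on both vehicle arrays. On the DAPT arrays Lum was so on 1 of 2 and the other markers on both. Their mean log2 ratio was -1.39 and -1.23 on the DAPT arrays and -0.09 and 0.19 on the vehicle arrays, and the log2 of their summed red signal was 13.65 and 13.75 against 15.72 and 15.35. Mgp, matrix Gla protein and 1 of the 12, was also the named gene whose pattern over the 4 arrays lay nearest to that of Fstl1, with a root mean square distance of 0.081 and a change of -2.44. The next nearest were Timp1, an inhibitor of metalloproteinases (0.16, a change of -2.28), and Serpinf1, which encodes pigment epithelium-derived factor (0.17, a change of -2.23). Genes picked for a near pattern over these 4 arrays have a like change by that choice, so their changes are no separate evidence. The part of the fibroblast markers in the fall of Fstl1 was not tested. Of 6 smooth muscle markers, again by the brightest probe, 1 fell and 0 rose. Other probes of these genes did fall with every probe tested on its own: an Acta2 probe of 10 spots (-2.04, limma adjusted p = 0.000186), whose brightest probe stood at -0.04, and a Tagln probe (-1.65, limma adjusted p = 0.00401), whose brightest probe stood at -0.53. The part of smooth muscle markers in the fall of Fstl1 was not tested either. Of 5 leukocyte markers 0 passed, and of 2 endothelial markers 0 passed. The genes nearest to Fst were Dus4l (0.028), Klf11, a Krüppel-like transcription factor (0.031), and 1810009A15Rik (0.037), with rises of 0.79, 0.82 and 0.83.

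Smad6 encodes an inhibitory Smad that BMP signals induce and that damps them in turn. It stood at -0.01 and -0.31 on the DAPT arrays and at 0.16 and 0.03 on the vehicle arrays. The groups did not overlap by a narrow margin. Its change was -0.26 ± 0.20 (SE, 95% interval -0.70 to 0.18, limma adjusted p = 0.484), and the normalised red signal differed by -0.0029.

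Of the 4 Id genes 0 passed. Id3 had log2 ratios of 0.32 and 0.16 on the DAPT arrays and 0.08 and -0.02 on the vehicle arrays. Both DAPT arrays lay above both vehicle arrays, and the change was 0.21 ± 0.19 (SE, 95% interval -0.22 to 0.63, limma adjusted p = 0.57). The change of Id3 stayed above 0 under all 15 alternatives tried for it and passed under 0 of them.

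Id2 had 2 probes well above background on all 4 arrays. The brighter read -1.35 and -0.57 on the DAPT arrays and -1.53 and -1.03 on the vehicle arrays. The second read -0.55 and -0.43 against -0.99 and -0.29. Arrays of the groups overlapped with both probes. The changes were 0.32 ± 0.27 (limma adjusted p = 0.52) and 0.15 ± 0.24 (limma adjusted p = 0.756 with every probe tested on its own), with 95% intervals of -0.26 to 0.90 and -0.38 to 0.67. The spread between arrays of a group, a standard deviation of 0.55 with DAPT and 0.36 with vehicle for the brighter probe, was as large as the change.

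Id1, a BMP target gene in many cell types, gave red signal near the background. Its brighter probe was well above background in red on both DAPT arrays and 1 vehicle array, with log2 ratios of -0.94 and -0.85 with DAPT and -0.32 and -0.67 with vehicle. The change was -0.39 ± 0.20 (SE, 95% interval -0.84 to 0.05, limma adjusted p = 0.273). The other probe read -0.70 and -0.54 against -0.62 and -0.68, a change of 0.03 ± 0.19 (limma adjusted p = 0.941 with every probe tested on its own). It was kept through the DAPT arrays alone and was not well above background on either vehicle array. For such a probe, each array of the dim group takes its lowest well-measured signal, or the probe's own where that is higher. The bright group's mean is set against it, which gave red signal 1.19-fold higher with DAPT. Here the probe's own signal was used, so this is the measured difference and not a lower limit. In the red channel alone it was 0.25 ± 0.26 (SE, limma adjusted p = 0.699), in the direction that the filter favoured. The figure takes no account of the reference, and here the green signal was 0.22 higher with DAPT too. No array had the dyes swapped.

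Id4 was at the edge of detection. Its brighter probe was not well above background on either DAPT array and was so on both vehicle arrays, with log2 ratios of 0.16 and 0.00 with DAPT and 0.69 and 0.76 with vehicle. Raw red brightness was 78 and 79 on the DAPT arrays and 90 and 93 on the vehicle arrays, against a median local background of 60 to 61. Reckoned by the same rule as for Id1, the red signal was at least 1.32-fold lower with DAPT, a figure that carries no error. Unlike for Id1 this is a lower limit, since the lowest well-measured signal replaced a lower signal of the probe. In the red channel alone the measured change was -0.49 ± 0.27 (SE, limma adjusted p = 0.487). The change of the ratio was -0.64 ± 0.19 (SE, limma adjusted p = 0.068, unadjusted p = 0.006). As the probe was kept only because the vehicle arrays were bright enough, the direction does not stand apart from the filter. Nor do these p-values or those of the other settings below. The size differed between settings: the change was -1.22 with a smaller normexp offset of 10 (adjusted p = 0.0226) and -2.62 with the processed intensities (adjusted p = 0.0152), which differ in background subtraction and dye normalization at once. It also passed with scale normalization (-0.74, adjusted p = 0.047). The other Id4 probe was not well above background on any array and was not tested.

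**Figure D4:**
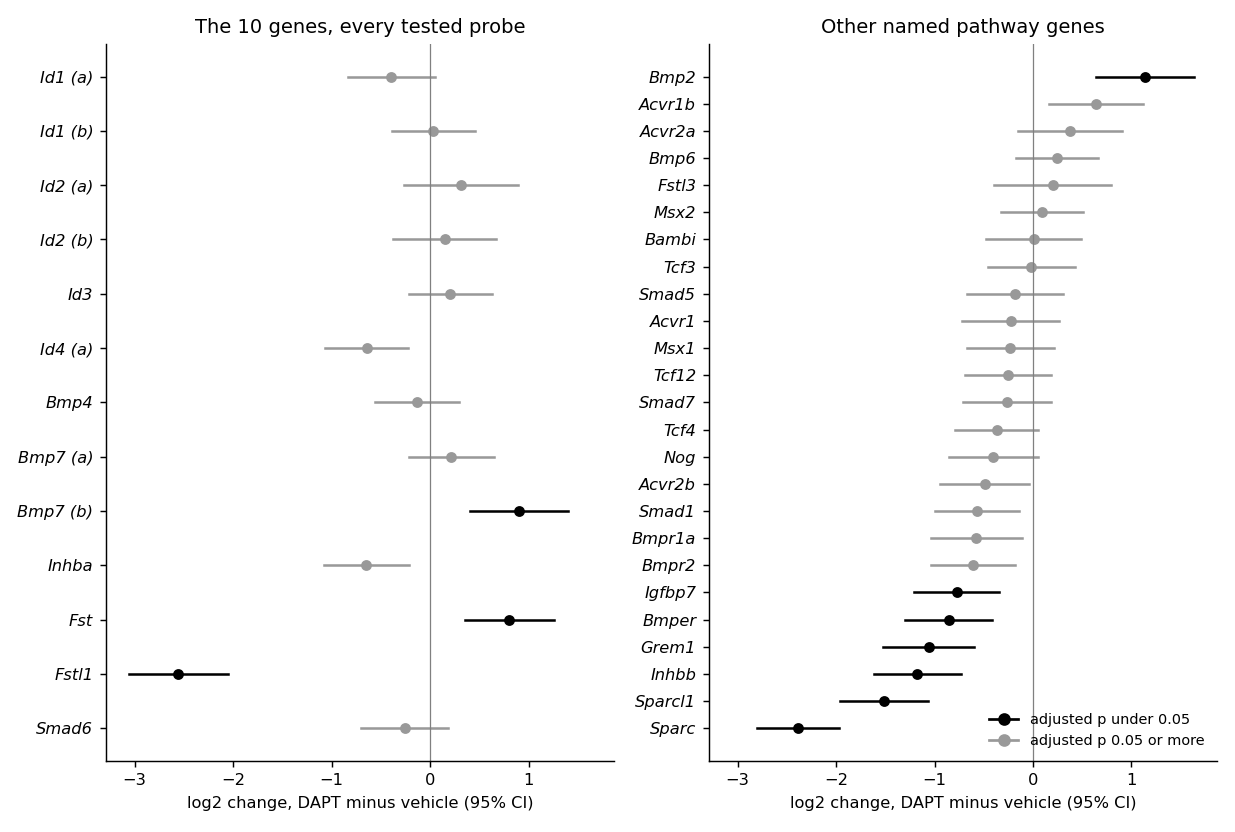
Log2 change, DAPT minus vehicle (horizontal axis), with its 95% interval for every tested probe of the 10 genes and for the other pathway genes named here. Black marks an adjusted p under 0.05, which for probes marked (b) comes from the fit of every probe on its own. Fstl1 at -2.56 and Sparc at -2.39 lie farthest to the left and Bmp2 at 1.14 farthest to the right.

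The rest of the pathway was taken as 88 genes in 8 lists by role, of which 65 were tested. Of these 1 rose and 6 fell, or 10.8% against 6.8% of all genes. Changes were below 0 for 48 of the 65, against 12116 of 21464 over all genes. Their median was -0.25, beside -0.06 over all genes. Median centring shifted the all-gene median to 0.11, and there 1 pathway gene passed upward and 6 downward. These were not all the same genes, since Bmp2 and Igfbp7 lost their calls there. Bmp2 entered through the DAPT arrays and Bmper through the vehicle arrays, the groups where each is high, so the filter favoured the direction in which each was counted. With probes well above background on all 4 arrays, 56 pathway genes were left, of which 0 rose and 5 fell.

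Among 13 other BMP and GDF ligands Bmp2 rose and 0 fell. Bmp2, a close relative of Bmp4, read 1.59 and 1.52 on the DAPT arrays and 0.73 and 0.10 on the vehicle arrays, where it was well above background in red on 1 of 2. The rise was 1.14 ± 0.23 (2.20-fold, limma adjusted p = 0.0123), and Bmp2 passed under 10 of 15 alternatives. The call was lost with high-background spots kept (0.54, adjusted p = 0.731), under median centring (0.67, adjusted p = 0.0726), with processed intensities (adjusted p = 0.191) or offset 10 (0.0512), and in the red channel alone (0.332). Bmp6 changed by 0.24 ± 0.19 and did not pass (limma adjusted p = 0.49).

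Inhbb, which encodes the βB subunit of activin B, fell. It read -0.81 and -1.08 on the DAPT arrays and 0.34 and 0.12 on the vehicle arrays, a change of -1.18 ± 0.20 (limma adjusted p = 0.00554). Its other probe changed by -0.72 ± 0.21 and did not pass with every probe tested on its own (limma adjusted p = 0.0611). With the processed intensities the first probe stood at -0.67 and did not pass (adjusted p = 0.228). The inhibin α gene Inha was the other tested subunit and changed by -0.44.

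Of 12 receptors and co-receptors 0 passed in limma. The type I activin receptor gene Acvr1b stood at 0.64 ± 0.22 and the type II BMP receptor gene Bmpr2 at -0.61 ± 0.20 (limma adjusted p = 0.0997 and 0.0863). The type I BMP receptor gene Bmpr1a had probes at -0.57 ± 0.21 and 0.35 ± 0.21, of opposite sign. Acvr1 stood at -0.23, Acvr2b at -0.49 and the decoy receptor gene Bambi at 0.01, and 0 of these passed. Acvr2a was kept through the DAPT arrays alone, and its measured red signal was 1.58-fold higher there. Its green signal was 0.28 higher with DAPT too, and the ratio differed by 0.38 without passing (limma adjusted p = 0.385).

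Of 10 tested Smads, Smad-binding repressors and ubiquitin ligases 0 passed, with changes of -0.57 ± 0.20 for Smad1, -0.19 ± 0.23 for Smad5 and -0.27 ± 0.21 for the inhibitory Smad7. Of 6 other BMP target genes 0 passed, with Msx1 at -0.23 and Msx2 at 0.09, both homeobox genes. The E protein genes Tcf3, Tcf4 and Tcf12, partners that Id proteins bind, stood at -0.02, -0.37 and -0.25 and did not pass. Acvr1b (0.89 without vehicle replicate 1), Bmpr1a (-0.87 with scale normalization) and Smad1 (-0.88 with scale normalization) each passed under 1 alternative.

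Of 12 tested extracellular antagonists and chordin-cleaving proteases 2 fell and 0 rose. Grem1, which encodes the BMP antagonist gremlin 1, read -2.88 and -2.69 on the DAPT arrays and -1.94 and -1.51 on the vehicle arrays, a change of -1.06 ± 0.21 (limma adjusted p = 0.0123). Bmper, which encodes a secreted BMP-binding protein, was kept through the vehicle arrays alone and was not well above background on either DAPT array. Its measured red signal was 1.80-fold lower there (change of the ratio -0.86 ± 0.20, limma adjusted p = 0.0261). Nog, the gene of the antagonist noggin, stood at -0.40 ± 0.21 and the activin-binding gene Fstl3 at 0.20 ± 0.27, and neither passed. Grem1 passed under 12 of 15 alternatives, and not with high-background spots kept (-0.26, adjusted p = 0.926), with scale normalization (-0.58, adjusted p = 0.128) or in the red channel alone (0.338). Bmper passed under 8 of 14, with changes from -1.81 to -0.49, and lost its call on leaving out DAPT replicate 1 (adjusted p = 0.0538), DAPT replicate 2 (0.0583) or vehicle replicate 2 (0.102), among others.

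Fstl1 belongs by its domains to the wider family of SPARC-related proteins, and 3 of the 7 other tested genes with follistatin domains fell while 0 rose. Sparc (osteonectin) read -1.86 and -1.75 on the DAPT arrays and 0.54 and 0.62 on the vehicle arrays, a fall nearly as large as that of Fstl1 at -2.39 ± 0.19 (limma adjusted p = 5.94e-05), and its other probe changed by -2.29 ± 0.27. Sparcl1 (hevin) fell by 1.51 (limma adjusted p = 0.00114) with probes at -1.51 ± 0.20 and -1.18 ± 0.24. Igfbp7, a secreted binding protein with a follistatin-like domain, fell by 0.78 (limma adjusted p = 0.0376) but passed under only 8 of 15 alternatives, with changes from -1.24 to -0.32. The smallest came with median centring (adjusted p = 0.346), and the call was also lost with processed intensities (-0.47, adjusted p = 0.431), offset 10 (0.0961) or high-background spots kept (0.22), in the red channel alone (0.306), and without DAPT replicate 2 (0.173) or vehicle replicate 2 (0.115). The fibroblast markers given above fell beside these antagonist and follistatin-domain genes as well, and their part in these falls was not tested.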

How the data were processed

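Per the file headers, each deposited scanner file holds 1 array with 2 colours read by Agilent Feature Extraction 10.7.3.1, with median spot and local background intensity values that are not normalized, processed intensity values that the software had background-subtracted and dye-normalized, and a log10 ratio. A value table deposited by the authors is on a log2 scale, and its direction was found from the scanner ratios (correlations of 0.869 to 0.902). How it was normalized was not stated. Column medians were -0.015 and -0.0115 for DAPT and 0.00072 and -0.0106 for vehicle.

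Background was corrected with normexp (offset 50) and ratios were fitted with loess within arrays, with control spots at weight 0. On DAPT 2, 13 spots with a local background over 5 times the array median were left out. Repeated spots were averaged per probe. Probes stayed in if both arrays of at least 1 group were well above background in red and all 4 arrays had a value, and the brightest in red stood for its gene. Names came from RefSeq accessions of GRCm38.p6 (24375 of 41174 probes). The red signal alone was taken after Aquantile normalization.

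Groups were compared with limma 3.58.1 in R 4.3.3 (lmFit and eBayes, two-sided, treatment as the only term, 2 residual and 10.3 prior degrees of freedom) with Benjamini-Hochberg adjustment over all genes. The fit was tested on simulated data. The genes and lists were chosen with earlier results of these data known. Named are the 10 genes, every other pathway gene past the threshold, a fixed set of further pathway genes, and for each member past the threshold the 3 named genes nearest in pattern. The number of arrays limits the precision.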

Additional observations from a re-analysis of the deposited data

How the results depend on the processing

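Of 16 alternatives, those that changed counts most were the red channel alone (0 genes higher, 1 lower, against 618 and 841, with 2638 at an unadjusted p under 0.05), keeping the 13 spots of high local background (3 and 70), leaving out marked spots (174 and 73 of 3944 genes), processed intensities (292 and 338), offset 10 (361 and 520), median centring (1269 and 529, 70.6% of calls higher against 42.4%) and scale normalization (384 higher, 27.7% of calls). Leaving out 1 array gave 423 to 805 genes higher and 607 to 1014 lower. The 10 genes had 0 higher and 2 lower with processed intensities and with offset 10, 0 and 3 with scale normalization, 0 higher with median centring and with the high-background spots, 0 and 0 in the red channel alone, 0 lower without marked spots (5 genes left, Fstl1 not among them), 2 probes higher with every probe on its own, and 0 to 1 higher when 1 array was left out. The other pathway genes had 0 higher with processed intensities, offset 10 or the filter on all 4 arrays, 0 and 0 in the red channel alone, 0 and 2 with the high-background spots, 1 lower without marked spots, 2 higher with every probe, and 1 to 4 higher without 1 array. The cause of these differences was not tested, and without marked spots fewer genes were left to test.

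Replicate numbers are shared by the groups, but the labels state no pairing. The correlation of the same-numbered arrays' deviations was 0.085 over 21464 genes. With 2 arrays per group it cannot settle whether same-numbered arrays share a culture. With the replicate block 884 genes were higher and 1165 lower, the 10 genes kept 1 higher and 1 lower, and 2 pathway genes were higher. All arrays lay on 1 slide in 1 scan, so no block for these could be fitted.

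Signs turned only for changes that passed neither way. With processed intensities this held for Id1 (0.027), the other Id2 probe (-0.0557), Bmp4 (0.23), Msx1 (0.0672), Tcf12 (0.20), Tcf3 (0.44) and Bambi (-0.24), with offset 10 for Tcf3 (0.0144) and Bambi (-0.0909), and with the authors' value table for Bambi (-0.0083). With median centring it held for the other Id1 probe (-0.25), Bmp4 (0.21), Msx1 (0.24), Tcf12 (0.11), Tcf3 (0.38), Acvr1 (0.21), Acvr2a (-0.30) and Bambi (-0.23), and with scale normalization for Bambi (-0.15). In the red channel alone it held for Id2 (-0.19), Bmp4 (0.0385), Bmp7 (-0.0142), Bmp6 (-0.41), Msx2 (-0.25), Tcf12 (0.56), Tcf3 (0.13), Tcf4 (0.0333), Smad1 (0.0352), Fstl3 (-1.71), Nog (0.11) and Bambi (-0.0193). With the high-background spots kept it held for Bmp7 (-0.0084), Acvr2a (-0.064) and Bambi (-0.23). With 1 array left out, ranges crossed 0 for the other Id1 probe (-0.0478 to 0.11), Id2 (-0.0719 to 0.70), the other Id2 probe (-0.20 to 0.50), Tcf3 (-0.17 to 0.14), Smad5 (-0.48 to 0.11), Fstl3 (-0.26 to 0.66), Acvr1 (-0.50 to 0.049) and Bambi (-0.19 to 0.21). Signal near the background limits Id1 and Id4.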

Other observations

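Probes of 1 gene read differently for other members of the pathway too, and these genes were chosen after their values were seen. Skil, a repressor of Smad signalling, had a probe that changed by -0.61 ± 0.20 and another that rose by 0.72 ± 0.19 with every probe tested on its own (limma adjusted p = 0.0441). The first read -0.19 and -0.17 on the DAPT arrays and 0.30 and 0.55 on the vehicle arrays, and the second 1.26 and 1.29 against 0.60 and 0.51. Smad3, an activin-responsive Smad, had probes at -0.63 ± 0.20 and 0.60 ± 0.26, and neither passed. The arrays of the groups did not overlap with any of these 4 probes, which says little, since 53.9% of all genes tested did not overlap either.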
